A study of Mus musculus with 33 samples.

Results

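The genes described here were 36 ribosome biogenesis genes, chosen by name and looked up by symbol in the RNA-seq table of a mouse reprogramming study. All 36 were among the 37973 genes of the table, and all 36 were among the 17242 that passed the filter on low values, which asked for at least 1 FPKM in at least 2 libraries. FPKM counts fragments scaled by transcript length and by the size of the library, so a level is relative to the rest of its library. Fewer cells of a type in a sorted population and less RNA per cell cannot be told apart in such bulk values.

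The cells were primary mouse embryonic fibroblasts (MEFs) isolated at 14 to 15 days post coitum. The 30 OSKM libraries came from cells of the genotype Col1a1-OSKM+/-; Rosa26-rtTA+/-; Oct4-GFP+/-, in which doxycycline at 1 µg/ml switches on Oct4 (Pou5f1), Sox2, Klf4 and Myc from a cassette in Col1a1, through the rtTA activator expressed from the broadly active Rosa26 locus. Of these, 13 were control overexpression libraries and 17 were Dppa2/4 overexpression libraries, the latter with added Dppa2 and Dppa4, a pair of chromatin-associated proteins of pluripotent cells. The culture protocol mentions lentiviral transduction for the whole series. Cells were sorted on days 2, 4, 8, 11 and 14 by Thy1, a fibroblast surface protein, by SSEA1, a surface glycan of cells on the way to pluripotency, and by the Oct4-GFP reporter. The gates were Thy1+SSEA1- (4 libraries per arm), Thy1-SSEA1- (4 control and 5 Dppa2/4), Thy1+SSEA1+ (2, Dppa2/4 only), Thy1-SSEA1+ (3 per arm) and GFP+ (2 control and 3 Dppa2/4). A further pair of libraries, 1 per arm, is labelled rtTA-MEF and carries Rosa26-rtTA+/-; Oct4-GFP+/- with no OSKM cassette in its genotype, also in doxycycline. Each combination of arm, day and gate was 1 library, so there are no replicates within a combination, and p-values measure the spread of paired differences over days, gates or arms. Gates of the same arm and day may come from the same culture, and the labels name no independent repeat of either arm. The pairs are therefore not known to be independent.

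Ribosomes are assembled in the nucleolus. RNA polymerase I transcribes a long precursor of the ribosomal RNAs, small nucleolar ribonucleoproteins (snoRNPs) guide its methylation (box C/D class) and pseudouridylation (box H/ACA class), and large processing complexes then cut and fold it into the small and large subunits. The process is among the main energy costs of a growing cell, many of its genes are known targets of the transcription factor Myc, and pluripotent cells are known for large, active nucleoli.

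By role, the 36 genes were 3 of the box C/D snoRNP (Nop56, Nop58 and the methyltransferase Fbl), 4 of the box H/ACA snoRNP (the pseudouridine synthase Dkc1 with Nhp2, Gar1 and Nop10), 4 nucleolar phosphoproteins and GTPases (Ncl, Npm1, Nolc1 and Gnl3), 5 of RNA polymerase I transcription (the subunits Polr1a, Polr1b, Polr1c and Polr1e, and Tcof1), 11 of small subunit processing (Heatr1, Utp20, Utp18, Wdr43, Wdr75, Wdr3, Wdr36, Dhx37, Rrp9, Rrp12 and Nop14) and 9 of large subunit processing (Bop1, Pes1, Wdr12, Nop2, Nop16, Nip7, Rrs1, Ebna1bp2 and Mrto4). A further 79 ribosome biogenesis genes of the table, taken from general knowledge, served for comparison.

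Because the members moved together across gates, the 250 bases upstream of their start sites were searched. RefSeq windows (GRCm38.p6) were found for 29 of the 36 members. The following 4 windows belong to genes on which the results below turn, or that hold the motifs in question. They are written 5′ to 3′ on the gene's strand, with matches of either strand in capitals to CACGTG (the canonical E-box), CACGCG (a variant E-box), CCGGAAG (an ETS-type motif), GGGCGG (a GC box) and CCAAT. The Nolc1 window is at chr19:46075597-46075846 (+ strand), that of Gar1 at chr3:129831397-129831646 (- strand), that of Nop2 at chr6:125131633-125131882 (+ strand) and that of Nop56 at chr2:130274162-130274411 (+ strand).
Nolc1: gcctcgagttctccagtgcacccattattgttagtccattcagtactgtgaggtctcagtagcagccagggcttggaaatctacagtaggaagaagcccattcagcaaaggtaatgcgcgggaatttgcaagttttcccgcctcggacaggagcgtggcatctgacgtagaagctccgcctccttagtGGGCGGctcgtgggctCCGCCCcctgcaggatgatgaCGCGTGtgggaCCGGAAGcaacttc
Gar1: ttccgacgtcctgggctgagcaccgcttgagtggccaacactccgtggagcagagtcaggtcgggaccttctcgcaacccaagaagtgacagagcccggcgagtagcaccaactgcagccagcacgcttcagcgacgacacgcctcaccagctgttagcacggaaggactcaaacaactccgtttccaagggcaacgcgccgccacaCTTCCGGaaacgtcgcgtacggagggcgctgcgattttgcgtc
Nop2: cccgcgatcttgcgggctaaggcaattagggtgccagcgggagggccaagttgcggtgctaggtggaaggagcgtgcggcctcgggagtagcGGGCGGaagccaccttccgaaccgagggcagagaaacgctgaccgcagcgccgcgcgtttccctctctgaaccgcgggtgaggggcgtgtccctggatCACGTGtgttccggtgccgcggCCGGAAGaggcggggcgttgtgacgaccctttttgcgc
Nop56: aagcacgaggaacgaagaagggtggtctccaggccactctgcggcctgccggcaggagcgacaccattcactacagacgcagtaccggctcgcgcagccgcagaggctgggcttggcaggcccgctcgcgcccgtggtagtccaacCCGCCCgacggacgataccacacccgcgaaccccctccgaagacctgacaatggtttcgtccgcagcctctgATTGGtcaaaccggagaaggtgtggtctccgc
The Nolc1 window held 1 CACGCG, 1 CCGGAAG and 2 GGGCGG matches, and the Gar1 window 1 CCGGAAG match. That of Nop2, a methyltransferase of the large subunit RNA, held 1 CACGTG, 1 CCGGAAG and 1 GGGCGG match, while that of Nop56 held 1 GGGCGG and 1 CCAAT match.

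The canonical E-box was not frequent among the members. CACGTG occurred upstream of 2 of the 29 members with a window (6.9%), against 11.8% of the other ribosome biogenesis genes with a window. The shares were 9.9% of the 10315 genes tested that have a window and 6.9% of all 27025 genes with a window. CACGCG occurred upstream of 5 members (17.2%), against 16.2%, 16% and 8.7% of the same sets in that order. CCGGAAG was found upstream of 9 members (31.0%), against 32.4% of the other ribosome biogenesis genes, 14.3% of genes tested and 7.8% of all genes with a window. GGGCGG was in 21 (72.4%, against 54.4%, 63.4% and 35.4%) and CCAAT in 9 (31.0%, against 38.2%, 40.6% and 37.5%). Matches of different motifs may overlap, and a match describes letters in a window, not a bound site.

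Some members host snoRNA genes. Annotated snoRNA genes on the same strand lay within the bodies of 6 of 36 members (16.7%), 19 snoRNA genes in all, against 3 of 78 other ribosome biogenesis genes (3.85%) and 234 of 13836 tested protein-coding genes (1.69%). Nop56 held 5, Nop58 held 4, Ncl, Gnl3 and Wdr43 held 3 each, and Dkc1 held 1. The snoRNAs themselves were not read here, since the libraries were made from polyA RNA. Of the members, 15 overlap a gene on the opposite strand, such as Nop56 with Idh3b and Dkc1 with Mpp1, and the strand setting of the quantification is not given in the sources used here, so a share of their fragments may belong to the partner. Annotated pseudogenes carry the name of Mrto4, and its level is uncertain to that extent. The search was by name alone. Pseudogenes named without their parent gene were not found by it, so other members may have some too.

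Some libraries stood apart. The depth implied by the lowest values was 21380000 to 42658000 fragments in the OSKM libraries and 14125000 and 16218000 in the rtTA-MEF pair. Dppa2 was 0.149 to 66.1 FPKM in the control libraries of the 13 day and gate combinations present in both arms, and 0.354 to 599 in the Dppa2/4 libraries, while Dppa4 was 0.141 to 91.1 against 0.409 to 827. The lowest Dppa2/4 values of both genes came from 1 library, the library labelled Dppa2/4 day 4 Thy1+SSEA1-, so its label is in doubt and results are also given without it. In GFP+ cells the arms did not stand apart in either gene. Dppa2 was 45.5 to 66.1 FPKM in control GFP+ libraries and 49.3 to 61.6 in Dppa2/4 GFP+ libraries. Dppa4 was 85.0 to 91.1 against 66.7 to 97.8 in those libraries. The description of the control day 11 GFP+ library names another gate than its title. Counts of the GFP+ and Dppa2/4 comparisons are also given without it. In both rtTA-MEF libraries Pou5f1 was high, at 122 FPKM in the control and 1116 in the Dppa2/4 library, although their genotype names no OSKM cassette. Summed fibroblast markers were 714 to 2812 FPKM in Thy1+SSEA1-, 806 to 6655 in Thy1-SSEA1- and 32.7 to 96.3 in GFP+ libraries, with the highest sums in the day 2 Thy1-SSEA1- libraries, and summed pluripotency markers were 3246 to 5874 in GFP+ libraries against 2.98 to 207 in Thy1-SSEA1- libraries. The mRNA of Thy1, the surface protein of the gate, goes against the name of the library labelled Dppa2/4 day 2 Thy1-SSEA1-, where it was 230 FPKM against 195 in the Thy1+SSEA1- library of that day. In control it was 164 against 241 on day 2, a small gap beside those of the 5 later pairs, where it was 39.5 to 77.8 in Thy1-SSEA1- and 244 to 447 in Thy1+SSEA1- libraries. Results that rest on the day 2 Thy1-SSEA1- libraries are therefore also given without them. Of the immune markers, Ptprc did not exceed 0.155, Cd3e 0.815, Emr1 1.00 and Csf1r 2.57 FPKM in any library, while Lyz2 reached 37.5 and Cd68 82.6. Of the endothelial markers, Cdh5 did not exceed 0.148, Emcn 0.319 and Kdr 5.86, while Tek reached 33.0 and Pecam1 65.0.

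The members were abundant and moved over a wide range. Their mean FPKM over libraries had a median of 54.3, and the median member stood at the 86.5th percentile of the genes tested. Npm1, a nucleolar chaperone, was the highest at 2786 FPKM on average and Dhx37, a helicase of small subunit processing, the lowest at 6.7. Between the lowest and the highest OSKM library, levels differed 2.45-fold for Wdr36 (30.5 to 74.7 FPKM) and 18.7-fold for Heatr1 (2.56 to 47.8 FPKM), with a median of 6.72-fold over the 36 members. The library of control day 8 Thy1-SSEA1+ cells had the highest level of 17 members, whereas Dppa2/4 day 14 Thy1+SSEA1- cells had the lowest level of 13.

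The mean level of the 36 genes, on the log2(FPKM + 1) scale, summarises each library. The Thy1+SSEA1- gate selects cells with surface Thy1. There the control value was 6.03 on day 2, 5.45 on day 4, 5.44 on day 8 and 4.64 on day 14. The Dppa2/4 value on the same days was 6.18, 5.31, 5.30 and 4.41. In Thy1-SSEA1- cells the control values were 5.43, 5.72, 5.82 and 5.55 on days 2, 4, 8 and 11, and the Dppa2/4 values were 5.34, 5.57, 5.47, 4.91 and 4.60 on days 2 to 14. The 2 Thy1+SSEA1+ libraries, days 2 and 4 of the Dppa2/4 arm, were at 6.21 and 5.93. In Thy1-SSEA1+ cells, the intermediates, control libraries gave 6.74, 6.44 and 5.72 on days 8, 11 and 14, and Dppa2/4 libraries 6.07, 5.23 and 5.02. GFP+ cells, in which the Oct4 reporter is active, gave 6.59 and 6.26 (control, days 11 and 14) and 6.53, 6.35 and 5.98 (Dppa2/4, days 8, 11 and 14). The median of all genes tested stayed between 2.67 and 3.21 in every library.

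**Figure D1:**
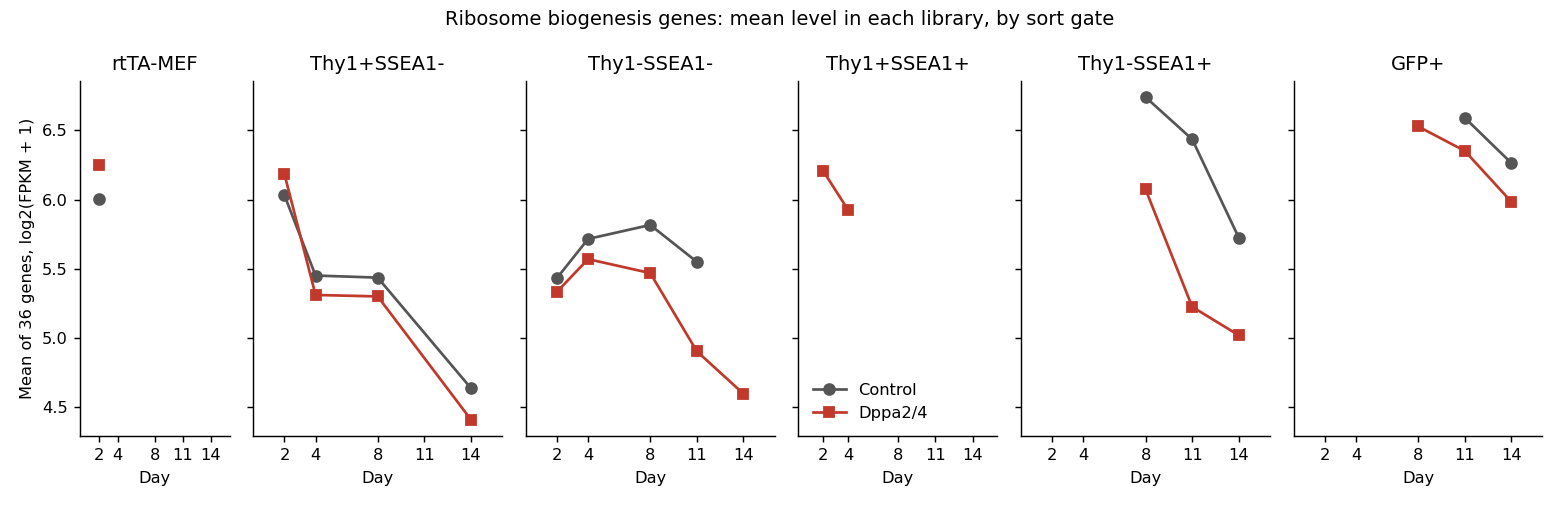
Mean log2(FPKM + 1) of the 36 ribosome biogenesis genes in each library (y axis) by day (x axis), with 1 panel per sort gate and 1 colour per arm; each point is 1 library. Levels were lower on later days in Thy1+SSEA1- cells (6.03 on day 2 and 4.64 on day 14 in control), and the lowest Thy1-SSEA1+ levels belonged to the Dppa2/4 arm.

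**Figure D2:**
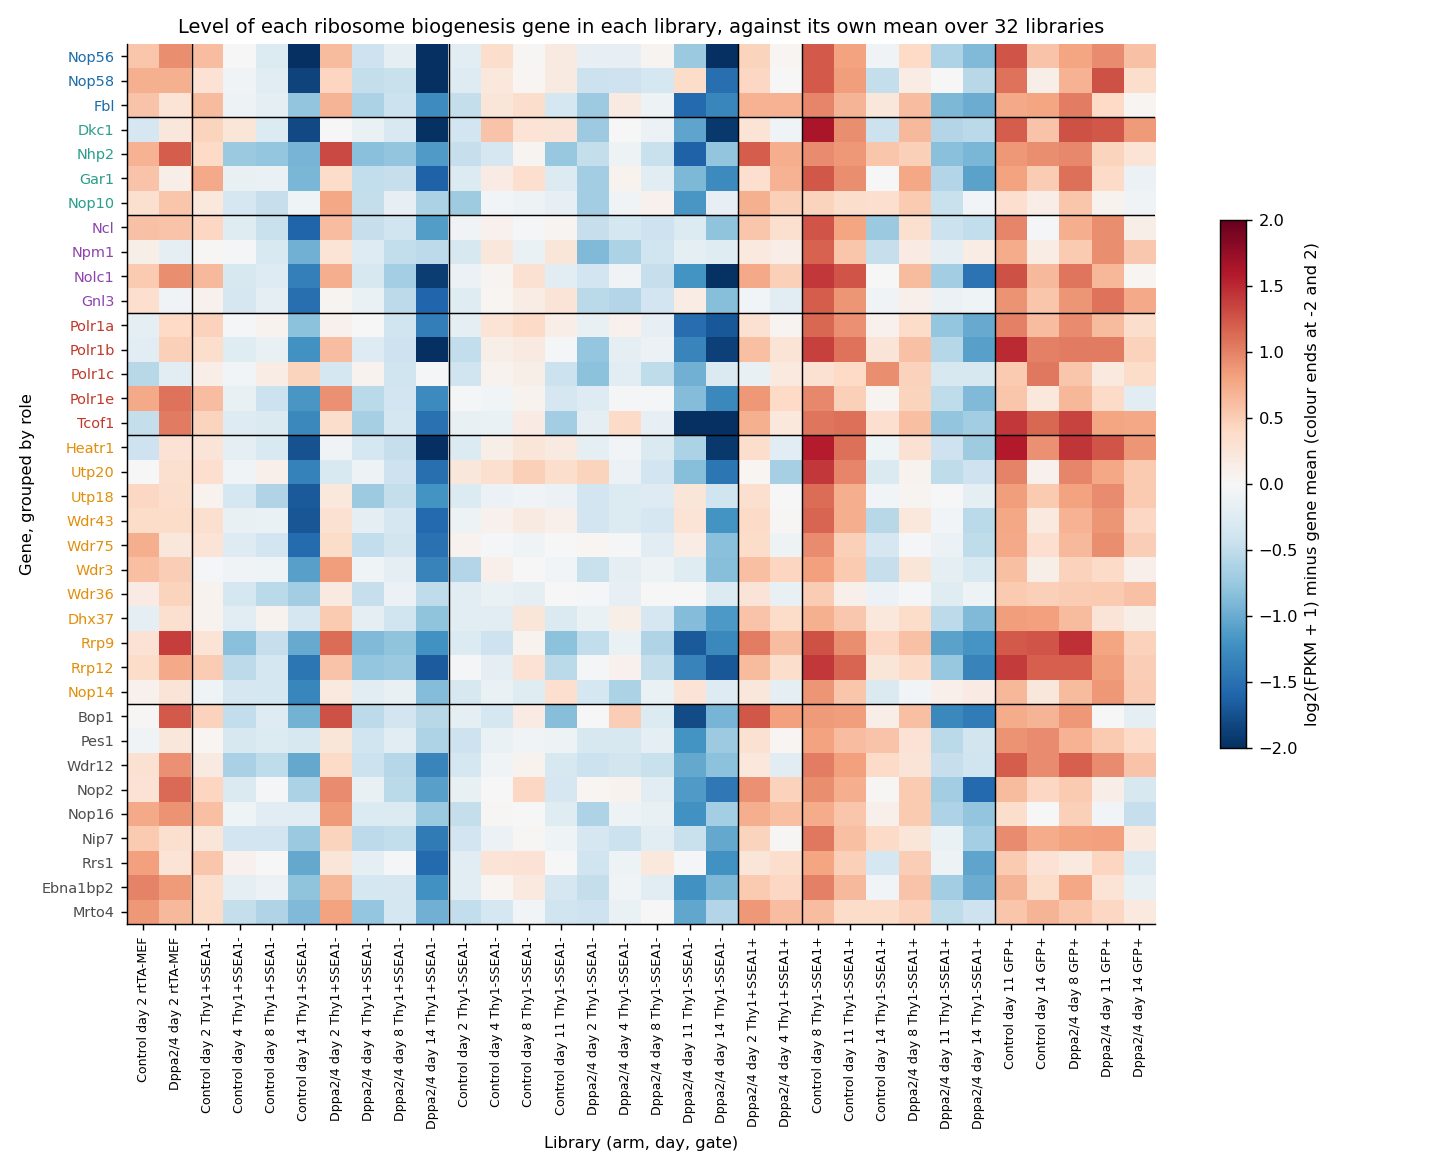
Level of each of the 36 genes (rows, grouped by role) in each of the 32 libraries (columns), as log2(FPKM + 1) minus the gene's own mean over libraries, with colours ending at -2 and 2. Most members were high in the control day 8 Thy1-SSEA1+ library and in GFP+ libraries, and low on day 14 in Thy1+SSEA1- libraries.

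The first question was whether intermediates that acquired SSEA1 differed from the Thy1- cells without it. Ribosome biogenesis genes were higher in Thy1-SSEA1+ than in Thy1-SSEA1- cells of the same arm and day (5 pairs, from days 8 and 11 of control and days 8, 11 and 14 of Dppa2/4). With limma, 17 of 36 members rose and 0 fell, where 8.24% of all genes tested rose and 10.5% fell. The median difference of the members was 0.59 on the log2 scale, against 0.00 over all genes, and all 36 differences were positive. By role, 1 of 3 box C/D, 3 of 4 box H/ACA, 1 of 4 nucleolar, 4 of 5 polymerase I, 4 of 11 small subunit and 4 of 9 large subunit genes rose.

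Tcof1, which encodes treacle, a nucleolar protein that supports ribosomal RNA transcription, had the largest difference. Its Thy1-SSEA1+ levels were 42.4 and 43.3 FPKM in control (days 8 and 11) and 30.3, 10.9 and 11.7 in Dppa2/4 cells (days 8, 11 and 14), against Thy1-SSEA1- levels of 22.2 and 11.8 in control and 17.3, 3.80 and 3.70 in Dppa2/4 cells. The gates overlapped, since the late Dppa2/4 SSEA1+ libraries were below the control day 8 Thy1-SSEA1- library, but within every pair the SSEA1+ library was higher (log2 difference 1.25, SE 0.18, limma adjusted p = 0.013).

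Rrp9 binds the snoRNA that directs the first cuts of the precursor. In SSEA1+ cells it was at 105 and 82.8 FPKM in control and 65.0, 19.8 and 18.4 in Dppa2/4 libraries, against 44.9 and 23.8, and 27.9, 12.7 and 16.9, in Thy1-SSEA1- cells (0.98, SE 0.25, limma adjusted p = 0.046, higher in 5 of 5 pairs). The day 14 pair of the Dppa2/4 arm was nearly level. Dkc1 (chrX:75095854-75109777, + strand) was at 311 and 191 FPKM in control SSEA1+ and at 157, 66.5 and 68.8 in Dppa2/4 SSEA1+ cells, against 121 and 119, and 92.1, 47.3 and 25.4 (0.94, SE 0.17, limma adjusted p = 0.021). Again the gates overlapped while each of the 5 pairs pointed the same way.

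Nolc1 (chr19:46075863-46085530, + strand), a phosphoprotein that carries snoRNPs to the nucleolus, was at 167 and 150 FPKM in control SSEA1+ and 96.5, 37.8 and 21.6 in Dppa2/4 SSEA1+ cells. In Thy1-SSEA1- cells it was at 76.8 and 53.3, and at 44.6, 26.4 and 15.0 (0.94, SE 0.17, limma adjusted p = 0.022). Both gates were lower on day 14 than on day 8 in the Dppa2/4 arm, with SSEA1+ above SSEA1- on each day. Of the members that did not pass, Wdr36 had the smallest difference, at 0.14 (SE 0.15, adjusted p = 0.516).

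Beside the members, 17 of 79 other ribosome biogenesis genes rose and 0 fell, and 13 of 15 proliferation genes rose (median 1.06). Mycn rose by 1.93 (SE 0.36, limma adjusted p = 0.023), with 32.5 and 24.5 FPKM in control and 3.61, 7.39 and 4.81 in Dppa2/4 SSEA1+ cells, while Myc differed by 0.17 (adjusted p = 0.592). Fibroblast markers fell in 10 of 10 and pluripotency markers rose in 9 of 10. The part of proliferation and of cell state in the members' difference was not tested. Leaving out a pair changed the calls unevenly: 3 members rose without control day 8, 0 without control day 11 and 3 without Dppa2/4 day 8. The count was 14 without Dppa2/4 day 11, and the highest of the 5 fits was 18. The median stayed between 0.54 and 0.69. The shares of all genes called in these fits are not given here.

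Against Thy1+SSEA1- cells, the differences of the intermediates were larger. In 4 pairs (days 8 and 14 of each arm), 22 of 36 members rose and 0 fell with limma, where 6.09% of all genes tested rose and 7.62% fell. The members' median was 0.97, against -0.01 over all genes, and 31 of 36 were higher in each of the 4 pairs. The share of all genes tested that were higher in each pair is not given here. All 3 box C/D genes rose, as did 3 of 4 box H/ACA, 2 of 4 nucleolar, 4 of 5 polymerase I, 6 of 11 small subunit and 4 of 9 large subunit genes. These pairs share the SSEA1+ libraries with the comparison above.

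Nop56 (chr2:130274430-130279313, + strand), a core protein of the box C/D snoRNP, was at 669 and 271 FPKM in control SSEA1+ cells on days 8 and 14 and at 376 and 153 in Dppa2/4 SSEA1+ cells. The Thy1+SSEA1- levels were 234 and 70.4, and 251 and 43.7 (log2 difference 1.45, SE 0.26, limma adjusted p = 0.043). Heatr1 (chr13:12395027-12440289, + strand), which works in both polymerase I transcription and small subunit processing, was at 47.0 and 14.2 FPKM in control and 19.0 and 8.90 in Dppa2/4 SSEA1+ cells, against 12.1 and 3.84, and 10.8 and 2.56 (1.44, SE 0.23, limma adjusted p = 0.041). For both genes, day 14 SSEA1+ libraries overlapped with day 8 Thy1+SSEA1- libraries.

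Dkc1 was at 311 and 74.2, and 157 and 68.8, against 82.9 and 27.9, and 80.9 and 24.6 FPKM (1.42, SE 0.18, limma adjusted p = 0.038). Gnl3, the nucleolar GTPase nucleostemin, was at 165 and 67.9 FPKM in control SSEA1+ and 76.8 and 67.0 in Dppa2/4 SSEA1+ cells, against 62.3 and 24.3, and 49.4 and 23.1 (1.24, SE 0.19, limma adjusted p = 0.039). Its gates did not overlap, which held for 4 of 36 members in all, the others being Nop10, Utp18 and Wdr12, and for 19.7% of all genes tested. Polr1c, a subunit shared by RNA polymerases I and III, differed by 0.30 (SE 0.22, adjusted p = 0.356). Its Thy1+SSEA1- level was 142 FPKM in control on day 14, above that of day 8 (115).

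In the same pairs, 25 of 79 other ribosome biogenesis genes rose, 9 of 15 proliferation genes rose and 7 of 10 fibroblast markers fell. No member passed when any 1 of the 4 pairs was left out (control day 8, control day 14, Dppa2/4 day 8 or Dppa2/4 day 14), nor without the filter on low values, while the median stayed between 0.85 and 1.09 over those 4 fits. How many of all genes passed in the fits of this paragraph is not given here. The loss of member calls therefore cannot be told from a general loss. Centring each library on its median moved the median of all genes to 0.13 and that of the members to 1.12.

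The next step, from Thy1-SSEA1+ to GFP+ cells, was compared within 5 pairs (days 11 and 14 of control and days 8, 11 and 14 of Dppa2/4). Here 24 of 36 members rose and 0 fell with limma, where 17.1% of all genes tested rose and 24.3% fell. The members' median was 0.64, against -0.09 over all genes, and 29 of 36 were higher in each of the 5 pairs, a count without the share of all genes tested beside it. Of small subunit processing 11 of 11 genes rose, beside 3 of 3 box C/D, 1 of 4 box H/ACA, 3 of 4 nucleolar, 3 of 5 polymerase I and 3 of 9 large subunit genes. The difference between roles was not tested.

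Heatr1 was at 47.8 and 29.6 FPKM in control GFP+ cells (days 11 and 14) and 42.8, 37.5 and 29.0 in Dppa2/4 GFP+ cells (days 8, 11 and 14). In Thy1-SSEA1+ cells it was at 33.6 and 14.2, and 19.0, 11.1 and 8.90 (1.18, SE 0.19, limma adjusted p = 0.0073). All GFP+ libraries but the 2 of day 14 exceeded the highest SSEA1+ library of these pairs. Rrp9 was at 102 and 103, and 120, 75.1 and 59.2 FPKM, against 82.8 and 57.5, and 65.0, 19.8 and 18.4 (1.10, SE 0.25, limma adjusted p = 0.019).

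Rrp12, which takes part in the export and maturation of the small subunit, was at 20.5 and 17.8 FPKM in control GFP+ cells and 17.8, 13.6 and 10.5 in Dppa2/4 GFP+ cells, against 17.2 and 8.66, and 9.67, 3.82 and 2.24 (1.09, SE 0.25, limma adjusted p = 0.021). Dkc1 was at 233 and 149, and 244, 238 and 182 FPKM, against 191 and 74.2, and 157, 66.5 and 68.8 (1.03, SE 0.23, limma adjusted p = 0.020). For Heatr1, Rrp9, Rrp12 and Dkc1 alike, Dppa2/4 days 11 and 14 were the lowest SSEA1+ libraries of these pairs, and their GFP+ partners were higher. The control day 14 SSEA1+ library came near them for Heatr1 and Dkc1. Wdr36, a WD-repeat protein of the small subunit processome, differed by 0.60 (SE 0.07, limma adjusted p = 0.0034). It was the only 1 of 36 members whose gates did not overlap, where those of 17% of all genes tested did not. The pair medians were 0.12 and 0.57 in control on days 11 and 14, and 0.44, 1.09 and 0.95 in Dppa2/4 cells on days 8, 11 and 14.

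Nop10 and Nop16 differed least, by 0.06 (SE 0.11, adjusted p = 0.700) and 0.11 (SE 0.13, adjusted p = 0.522). Of 79 other ribosome biogenesis genes 52 rose and 1 fell, among them Mdn1 and Nat10 with rises of 1.19 and 1.17. The polymerase I initiation factor Rrn3 rose by 0.89 (SE 0.09, limma adjusted p = 0.0030) and Ubtf, which binds ribosomal DNA, by 0.64 (SE 0.13, adjusted p = 0.016).

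The Myc family moved in opposite directions at this step. Myc, whose level here sums the endogenous gene and any cassette transcript assigned to it, fell by 1.20 (SE 0.24, limma adjusted p = 0.013) and was at 31.1 and 22.8, and 44.3, 23.7 and 11.2 FPKM in GFP+ cells, against 128 and 57.6, and 110, 52.6 and 13.9 in SSEA1+ cells. Mycn rose by 2.04 (SE 0.35, limma adjusted p = 0.0088), to 50.2 and 42.3, and 46.8, 41.9 and 23.0 FPKM, from 24.5 and 15.0, and 3.61, 7.39 and 4.81. Myc was lower and Mycn higher in all 5 pairs. Of 15 proliferation genes 11 rose, while Mki67 differed by -0.21 (SE 0.09, adjusted p = 0.119). Fibroblast markers fell in 10 of 10 and pluripotency markers rose in 10 of 10, and their part in the members' difference was not tested. The count of members that rose was 10 without control day 14, 8 without Dppa2/4 day 11 and 6 without Dppa2/4 day 14. For these fits the shares of all genes called are not given here, so a loss specific to the members cannot be told from a general loss. Median centring moved the median of all genes to 0.15 and that of the members to 0.87, and the share of all calls that were rises was 41.4% as fitted, 55.0% with quantile normalization and 67.0% with median centring. With quantile normalization 35 of 36 member differences were positive.

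**Figure D3:**
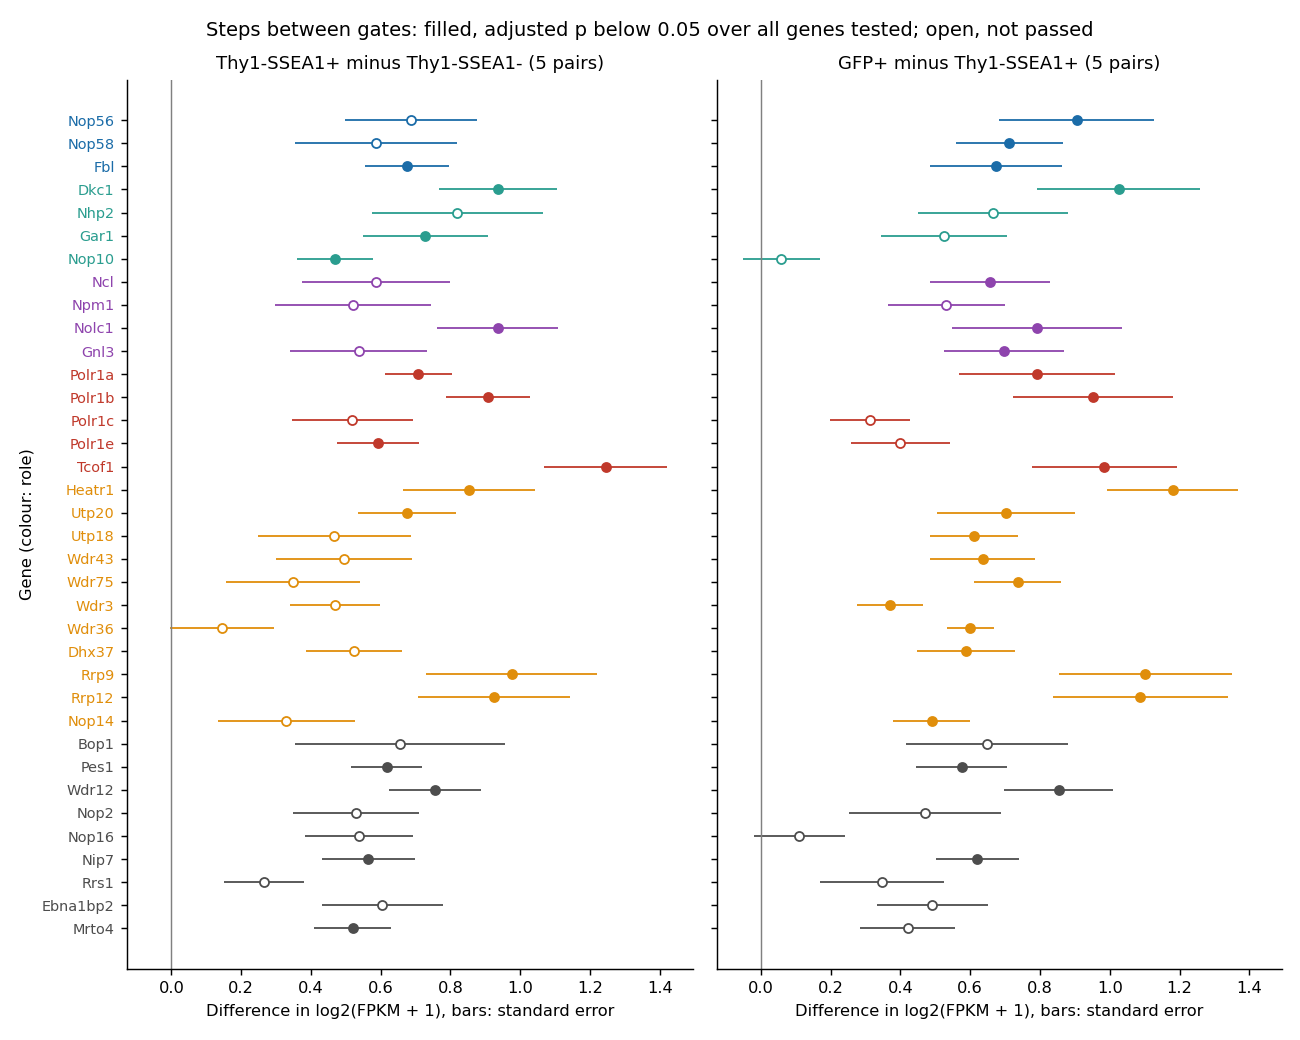
Difference in log2(FPKM + 1) of each member (rows, coloured by role) for Thy1-SSEA1+ minus Thy1-SSEA1- (left, 5 pairs) and GFP+ minus Thy1-SSEA1+ (right, 5 pairs), with bars of 1 standard error; filled points passed an adjusted p of 0.05 over all genes tested. On the left 17 points are filled and on the right 24, including all 11 small subunit genes, and every point lies above 0.

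The gates Thy1-SSEA1- and Thy1+SSEA1- differ in Thy1 alone. Over 7 pairs of Thy1-SSEA1- and Thy1+SSEA1- cells, 0 of 36 members passed with limma in either direction and 1 reached an unadjusted p below 0.05, where 0.0058% of all genes tested passed. The pairs of day 2 went against the rest. The median of the members was -0.56 in control and -0.81 in Dppa2/4 cells on day 2, whereas it was 0.28 and 0.37 in control on days 4 and 8, and 0.23, 0.18 and 0.27 in Dppa2/4 cells on days 4, 8 and 14. On day 2, 35 of 36 members were lower in the Thy1-SSEA1- library in both arms, and in the 5 later pairs 17 were higher each time. Without both day 2 pairs, an alternative chosen after seeing the data, 0 of 36 members passed in either direction and the members' median was 0.25, while 0.0406% of all genes tested rose and 0.0464% fell.

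The difference between day 2 and the later days was then tested, a choice made after these values were seen. With limma, the Thy1-SSEA1- effect was lower on day 2 for 27 members and higher for 0, where 7.92% of all genes tested were lower and 18.1% higher. The members' median was -0.98 (all genes 0.05). By role, 3 of 3 box C/D, 4 of 4 box H/ACA, 2 of 4 nucleolar, 2 of 5 polymerase I, 8 of 11 small subunit and 8 of 9 large subunit genes passed.

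Nhp2, of the box H/ACA core, was at 141 FPKM in Thy1+SSEA1- and 77.4 in Thy1-SSEA1- cells on day 2 in control, and at 270 and 76.4 in Dppa2/4 cells. Later pairs, in the same order of gates, were 63.7 and 85.0 (day 4) and 62.5 and 111 (day 8) in control, and 59.9 and 100.4 (day 4), 61.5 and 78.3 (day 8) and 48.1 and 61.7 (day 14) in Dppa2/4 cells. Its effect differed by -1.87 (SE 0.28, limma adjusted p = 0.0082), being lower in both day 2 pairs and higher in all 5 others.

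Fbl, which methylates ribosomal RNA, was at 91.4 and 41.8 FPKM on day 2 in control and at 94.5 and 35.1 in Dppa2/4 cells. Later pairs were 54.4 and 69.2, and 51.3 and 75.0, in control, and 37.3 and 66.5, 43.2 and 54.3, and 23.8 and 23.1 in Dppa2/4 cells (-1.65, SE 0.23, limma adjusted p = 0.0075). The day 14 pair of Fbl was level. Nop10, the small scaffold of the H/ACA core, was at 105 and 54.8 FPKM on day 2 in control and 156 and 55.7 in Dppa2/4 cells, and at 71.5 and 87.3, 65.6 and 84.0, 64.7 and 86.4, 80.9 and 96.1, and 58.3 and 80.8 in the later pairs (-1.55, SE 0.16, limma adjusted p = 0.0058).

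Rrp9 was at 51.9 and 35.2 FPKM on day 2 in control and 94.6 and 30.3 in Dppa2/4 cells, and at 23.5 and 31.8, 31.0 and 44.9, 22.8 and 38.9, 24.3 and 27.9, and 17.9 and 16.9 later (-1.44, SE 0.33, limma adjusted p = 0.024). Of its later pairs, that of day 14 alone was not higher in the Thy1-SSEA1- gate.

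Other values moved with the day 2 pattern. Thy1 mRNA was lower in the Thy1-SSEA1- library by 0.55 in control and higher by 0.24 in Dppa2/4 cells on day 2, and differed by -2.22 to -3.06 in the later pairs, all on the log2(FPKM + 1) scale, so the day 2 Thy1-SSEA1- libraries go against, or hardly follow, their gate label in this gene. Pou5f1, a cassette gene, was at 336 and 94.9 FPKM in Thy1+SSEA1- and Thy1-SSEA1- cells on day 2 in control and at 327 and 75.7 in Dppa2/4 cells, while Myc was at 112 and 43.5, and 199 and 37.8. The effect on Myc differed by -1.41 (SE 0.35, limma adjusted p = 0.031) and that on Pou5f1 by -1.70 (SE 0.30, adjusted p = 0.012). Summed fibroblast markers were highest in the day 2 Thy1-SSEA1- libraries, at 6655 FPKM in control and 6044 in Dppa2/4 cells, and the effect was higher on day 2 for 10 of 10 fibroblast markers, Lum and Dcn by 4.19 and 3.77. It was lower for 4 of 15 proliferation genes, 11 of 18 other Myc targets and 39 of 79 other ribosome biogenesis genes. Whether these account for the members' difference was not tested. Without the Dppa2/4 day 2 pair, which leaves 1 pair for that day, 11 members passed. Median centring moved the median of all genes to -0.17 and that of the members to -1.21, with 44.1% of all calls higher in place of 69.6%.

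**Figure D4:**
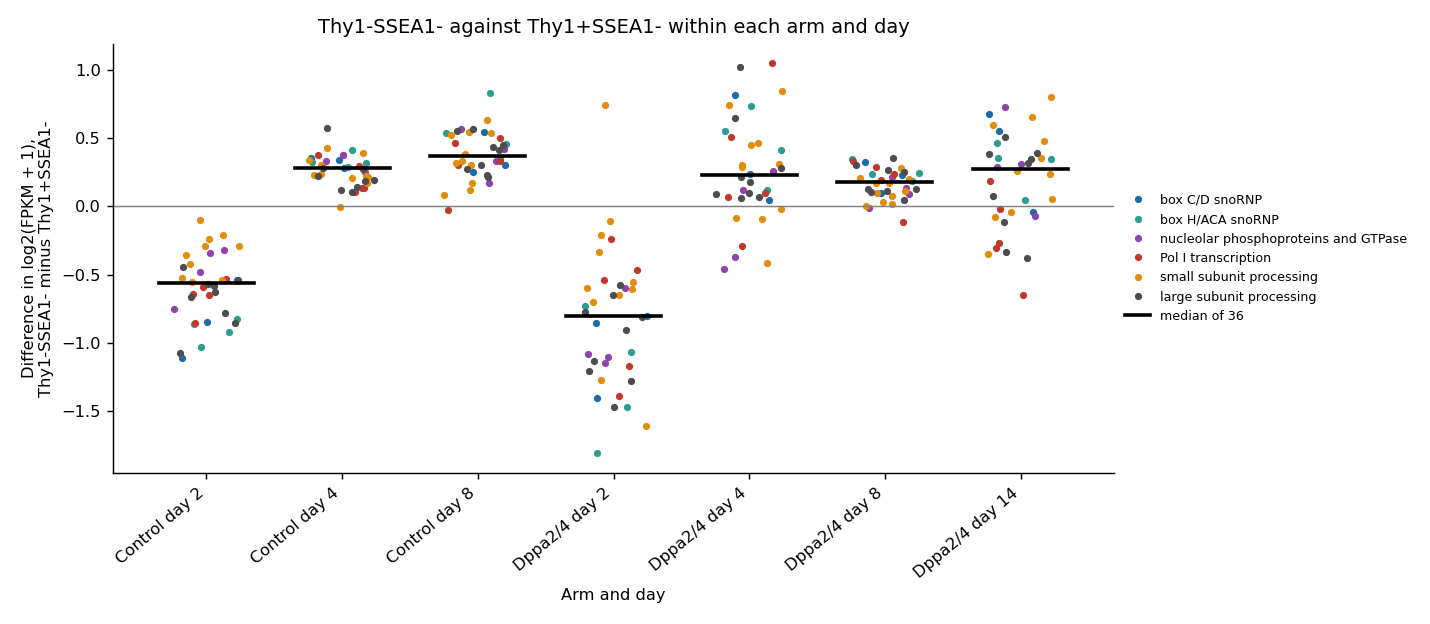
Thy1-SSEA1- minus Thy1+SSEA1- difference in log2(FPKM + 1) (y axis) of each of the 36 members (points, coloured by role) in each of the 7 pairs of arm and day (x axis); black bars are medians of the 36. The medians of the day 2 pairs were -0.56 and -0.81, and those of the other 5 pairs were 0.18 to 0.37.

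Change over time was read in the 8 Thy1+SSEA1- libraries. The slope on day was negative for 35 of 36 members, with a median of -0.12 log2 units per day (all genes 0.01), and 31 of 36 had an unadjusted p below 0.05, where 4098 of 17242 genes did. After adjustment by limma 0 members and 0% of all genes passed. Nop56 had the steepest slope, at -0.23 per day (SE 0.03, limma adjusted p = 0.062), with 437, 283, 234 and 70.4 FPKM on days 2, 4, 8 and 14 in control and 442, 214, 251 and 43.7 in Dppa2/4 cells. Day 2 was highest and day 14 lowest in both arms. Nop58, its partner in the box C/D snoRNP, followed at -0.18 and Dkc1 at -0.18, and Polr1c was the only member with a positive slope, 0.02 (SE 0.02, adjusted p = 0.442). When the library of doubtful label, Dppa2/4 day 4, was left out, 25 of 36 members passed as falling, where 924 of 17242 genes tested did (5.36%). With only genes of mean FPKM of at least 5, 14 members passed, where 148 of 10305 genes did (1.44%).

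In Thy1-SSEA1- cells the slope was negative for 30 of 36 members (9028 of 17242 genes tested), with a median of -0.04 per day. With limma 0 members passed, where 2.58% of all genes tested did (1.74% rose and 0.841% fell), and 8 of 36 had an unadjusted p below 0.05, where 3985 of 17242 genes did. Without day 2, 0 members and 0 genes passed, and the members' median slope was -0.08. OSKM day 2 libraries were set against the rtTA-MEF pair, which gave 0 members past the threshold with limma and 0 at an unadjusted p below 0.05, where 0.0116% of all genes tested passed. The median was -0.36, and -0.06 for Thy1+SSEA1- cells alone. Nop56 was at 418 and 544 FPKM in the rtTA-MEF pair, against 437 and 442 in Thy1+SSEA1- and 243 and 253 in Thy1-SSEA1- cells of day 2, so the lower day 2 values belonged to the libraries labelled Thy1-SSEA1-. As given above, Pou5f1 in the rtTA-MEF pair goes against its genotype label.

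The central comparison of the study, Dppa2/4 against control overexpression, was made within the 13 combinations of day and gate present in both arms. These pairs are not independent repeats of the overexpression, and the p-values measure how even the difference was across them. Ribosome biogenesis genes were lower with Dppa2/4: 21 of 36 members fell and 0 rose with limma, where 7.6% of all genes tested fell and 15.9% rose. The members' median was -0.38 on the log2 scale, against 0.03 over all genes, and 34 of 36 differences were negative. All 5 polymerase I genes fell, as did 2 of 3 box C/D, 2 of 4 box H/ACA, 1 of 4 nucleolar, 4 of 11 small subunit and 7 of 9 large subunit genes. The ranges of the arms overlapped for every member, 0 of 36 being apart, where 0.0058% of all genes tested were. Without the day 2 Thy1-SSEA1- pair 21 members fell as well, with a median of -0.42, where 7.36% of all genes tested fell and 15.5% rose.

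Nolc1 had the largest fall. Over the 13 libraries of each arm its lowest, median and highest levels were 23.3, 64.5 and 167 FPKM in control and 15.9, 47.3 and 103 with Dppa2/4. The arms overlapped widely, but Nolc1 was lower in 12 of 13 pairs, by 0.65 (SE 0.15, limma adjusted p = 0.0075), which is 1.57-fold. The exception was day 2 Thy1+SSEA1-, with 97.1 FPKM in control and 103 with Dppa2/4.

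Polr1a and Polr1b form the catalytic centre of RNA polymerase I. Polr1a (chr6:71909053-71984935, + strand) was at 8.95, 20.3 and 38.3 FPKM (lowest, median and highest) in control and 5.13, 14.9 and 26.4 with Dppa2/4, and was lower in 11 of 13 pairs (-0.61, SE 0.15, limma adjusted p = 0.0094). Polr1b (chr2:129100995-129126594, + strand) was at 7.65, 21.7 and 55.5 FPKM in control and 3.85, 15.8 and 40.3 with Dppa2/4, and was lower in 12 of 13 pairs (-0.60, SE 0.15, limma adjusted p = 0.010). In both, the differences were large in the day 11 pairs of Thy1-SSEA1- and Thy1-SSEA1+ cells. Polr1a was at 18.3 FPKM in control and 5.13 with Dppa2/4 in the former and at 32.3 and 9.34 in the latter, and Polr1b at 18.6 and 7.04, and 41.7 and 12.5.

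Rrp12 (chr19:41862851-41896173, - strand) was at 2.01, 8.66 and 20.7 FPKM in control and 1.58, 4.89 and 13.6 with Dppa2/4 (-0.61, SE 0.17, limma adjusted p = 0.018, lower in 11 of 13 pairs). Gar1 and Rrs1, an assembly factor of the large subunit, were the only members lower in all 13 pairs. Gar1 was at 43.3, 91.9 and 196.5 FPKM in control and 26.1, 59.4 and 141 with Dppa2/4 (-0.58, SE 0.10, limma adjusted p = 0.0016). Rrs1 was at 14.1, 36.1 and 52.0, against 9.44, 27.8 and 42.1 FPKM, with a smaller fall of 0.31 (SE 0.07, adjusted p = 0.0061).

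The members that did not pass included Npm1, the most abundant member, and Ncl. Npm1 was at 1355, 2684 and 5968 FPKM in control and 1428, 2308 and 5020 with Dppa2/4 (-0.19, SE 0.14, limma adjusted p = 0.360), and Ncl differed by -0.22 (SE 0.13, adjusted p = 0.222). Wdr36 and Nop14 differed by 0.01 each (SE 0.07 and 0.11), the only positive values. Rrp9 differed by -0.52 with a wide error (SE 0.19, adjusted p = 0.063).

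The size of the difference varied over day and gate. The members' median was 0.17 on day 2 in Thy1+SSEA1- cells, where 26 of 36 were higher with Dppa2/4, and -0.06 on day 2 in Thy1-SSEA1- cells. In Thy1+SSEA1- cells it was -0.14, -0.12 and -0.23 on days 4, 8 and 14, and in Thy1-SSEA1- cells -0.16, -0.39 and -0.75 on days 4, 8 and 11. In Thy1-SSEA1+ cells it was -0.73, -1.20 and -0.85 on days 8, 11 and 14, with 36 of 36 lower on day 11. In GFP+ cells, where Dppa2 and Dppa4 levels overlapped between the arms, it was -0.29 and -0.41 on days 11 and 14. The terms for a different effect on days 8 to 14 and in SSEA1+ or GFP+ cells, however, passed for 0 members each with limma in either direction. For the term of late days 0.0174% of all genes tested were higher and 0.0058% lower, and for the term of SSEA1+ or GFP+ cells 0.423% were higher and 0.423% lower. Their member medians were -0.41 and -0.39, and 16 and 14 members had an unadjusted p below 0.05, where 3247 and 3209 of 17242 genes did.

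In the day 11 Thy1-SSEA1+ pair, differences ran from -0.35 for Wdr36 to -2.11 for Bop1, a scaffold of the large subunit PeBoW complex. Rrp9 differed by -2.01, Nolc1 by -1.96, Rrp12 by -1.92 and Tcof1 by -1.89 in that pair, which has no replicate. Beside these, the Dppa2/4 day 11 libraries leaned against GC-rich genes. The correlation across 16348 genes between transcript GC and the library's deviation from the gene means was -0.37 in Thy1-SSEA1-, -0.22 in Thy1-SSEA1+ and -0.22 in GFP+ cells of that arm and day, and -0.23 in the control day 11 Thy1-SSEA1- library. Genes are not independent replicates, so these are descriptions. The members' transcripts had a GC content of 40.4% to 59.9% (median 50.2%). Over the 36 members alone the correlation was stronger. It was -0.675, -0.679 and -0.523 in those Dppa2/4 libraries, in the same order, and -0.705 in the control day 11 Thy1-SSEA1- library. In the control day 11 Thy1-SSEA1+ library it was 0.212. The lean was not confined to day 11 and was not always negative. It was -0.649 in Dppa2/4 day 14 Thy1-SSEA1+ cells (all genes -0.208) and 0.546 in the control library of that day and gate (all genes 0.219). Other libraries had positive values over the members, such as 0.652 in Dppa2/4 day 8 Thy1-SSEA1+ and 0.644 in Dppa2/4 day 4 Thy1-SSEA1- cells (all genes 0.207 and 0.177). How far GC accounts for the members' differences was not tested. After a correction for GC within each library, added after seeing the data, 25 members fell and 36 of 36 differences were negative. The share of all genes tested that fell in that fit is not given here.

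**Figure D5:**
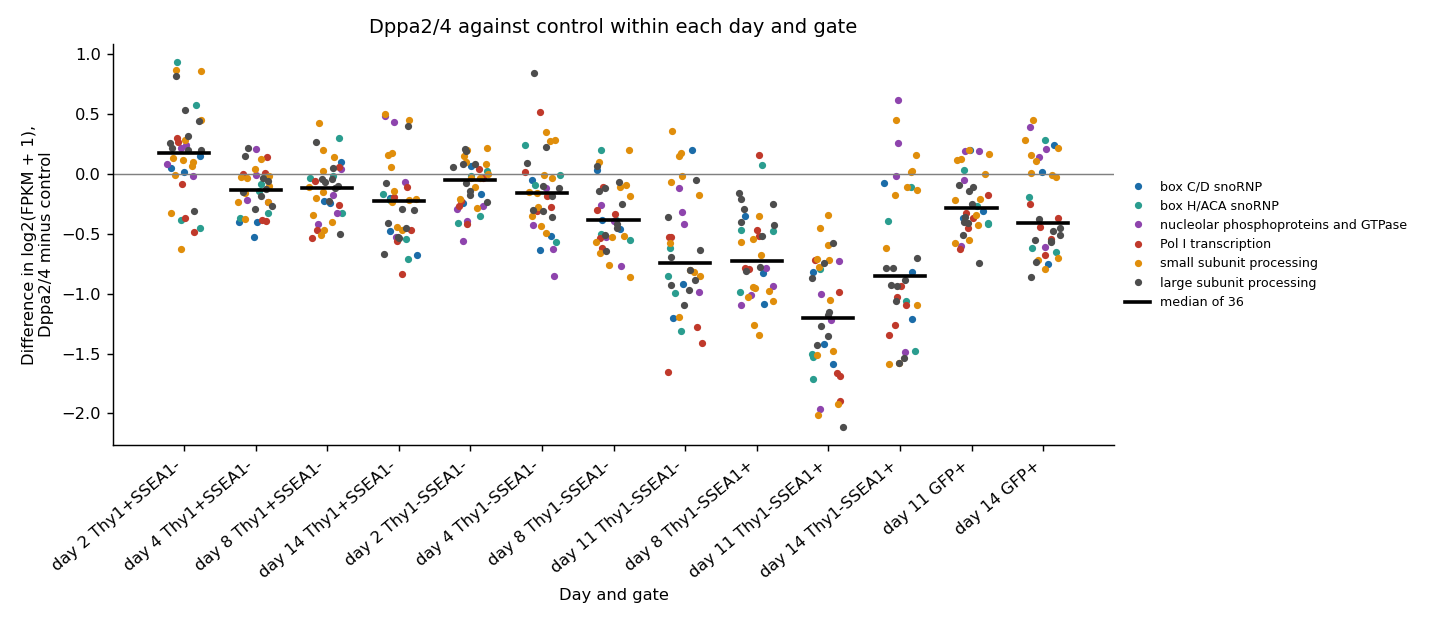
Dppa2/4 minus control difference in log2(FPKM + 1) (y axis) of each of the 36 members (points, coloured by role) in each of the 13 combinations of day and gate (x axis); black bars are medians of the 36. The medians ran from 0.17 on day 2 in Thy1+SSEA1- cells to -1.20 on day 11 in Thy1-SSEA1+ cells.

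Related genes moved as follows. Of 79 other ribosome biogenesis genes 19 fell and 0 rose, among them Nle1 (-0.85) and Rcl1 (-0.64), and of 18 other Myc targets 7 fell, Shmt1 by 1.20 and Srm by 0.90, and 0 rose. Ubtf fell by 0.50 (SE 0.06, limma adjusted p = 0.0004, lower in 13 of 13 pairs), from a median of 54.7 FPKM in control to 41.9, whereas Rrn3 differed by -0.14 (SE 0.09, adjusted p = 0.292). Of 18 polymerase III genes 2 fell.

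Myc was at 22.8, 91.3 and 132 FPKM (lowest, median and highest) in control and 11.2, 52.6 and 199 with Dppa2/4, and fell by 0.58 (SE 0.19, limma adjusted p = 0.046, lower in 11 of 13 pairs). Mycn differed by -0.64 (SE 0.24, adjusted p = 0.067). Trp53, the transcription factor that responds to nucleolar stress, fell by 0.68 (SE 0.16, limma adjusted p = 0.0091, lower in 13 of 13 pairs), and 7 of 10 genes of nucleolar stress and p53 fell while 1, Cdkn1a, rose by 0.38. Pou5f1 fell by 0.72 (SE 0.17, adjusted p = 0.0081). Of 15 proliferation genes 3 fell, and Mki67 differed by 0.10 (SE 0.20, adjusted p = 0.751). Of 6 epithelial markers 5 rose, and of 10 fibroblast markers 3 and of 10 pluripotency markers 1 fell. Of the 2 immune markers tested Cd68 rose by 0.54 (adjusted p = 0.039), with the summed immune list at 5.62 to 112 FPKM in control and 7.31 to 85.0 in Dppa2/4 OSKM libraries, and of 3 endothelial markers 1 fell. The part of Myc, of the cassette and of these markers in the members' fall was not tested.

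The count of members that fell was 13 without the day 11 Thy1-SSEA1- pair, 6 without the 3 Dppa2/4 day 11 libraries and 19 when the day 4 library of doubtful label was left out. It was 18 without the pair of the control day 11 GFP+ library, whose description names another gate. The shares of all genes called in these fits are not given here, so a loss of member calls cannot be told from a general loss. Of all genes called, 67.6% were higher as fitted, 48.3% with quantile normalization, 44.6% with median centring and 50.5% with the GC correction. Members that fell numbered 21 as fitted, 25 with the GC correction and 21 to 25 over these fits, and none rose.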

How the data were processed

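PolyA RNA-seq of 32 libraries was analysed. The authors deposited FPKM per gene without read counts. TopHat2, Cuffdiff and the mm10 genome are named, per the submitters' processing notes, and tool versions, annotation and strand setting are not given in the sources used here. The labels describe 33 samples. Of 33 value columns 1 matched no sample and was not used, 1 sample is not analysed here, and a pair of day 2 columns without a gate was taken as rtTA-MEF because every other day 2 sample had its own column. The control day 11 GFP+ library was used as titled, although its description names another gate.

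The deposited FPKM values were transformed to log2(FPKM + 1). Genes that reached 1 FPKM in at least 2 libraries were fitted with limma 3.58.1 under R 4.3.3 (lmFit and eBayes with a trend). P-values are two-sided and adjusted by Benjamini-Hochberg over all 17242 genes, with a threshold of 0.05. Combinations of day and gate, or of arm and day, were blocks. Fold changes on this scale understate changes of low genes. The fits were tested on simulated data. Members, lists, roles and the naming rule (up to 4 members with the largest passing change per direction, and up to 2 genes of each other list) were chosen with earlier results of these data known. Alternatives covered the pseudocount, the filter, scaling, the block, GC and single libraries or pairs. Genes were matched to GENCODE vM21 (GRCm38) by identifier, 32933 of 37973. Implied depth came from the lowest values of 2001 genes.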

Additional observations from a re-analysis of the deposited data

Results flagged for a closer look

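The Thy1-SSEA1- against Thy1+SSEA1- difference changed between day 2 (2 pairs) and days 4 to 14 (5 pairs). In 17 members both day 2 pairs were lower and all 5 later pairs higher, a count with no test. The test of the difference itself, chosen after the values were seen (limma, adjusted over all genes), passed for 27 members, with the effect lower on day 2 in each. On the log2 scale the differences were, for the snoRNP genes, -1.87 for Nhp2, -1.65 for Fbl, -1.55 for Nop10, -1.43 for Gar1, -1.18 for Nop56, -1.02 for Dkc1 and -0.95 for Nop58. In nucleolar and polymerase I genes they were -1.19 for Nolc1, -1.01 for Ncl, -1.37 for Polr1b and -1.19 for Polr1e. In small subunit genes they were -1.44 for Rrp9, -1.06 for Wdr3, -0.98 for Rrp12, -0.92 for Utp18, -0.72 for Wdr43, -0.63 for Heatr1, -0.63 for Wdr75 and -0.49 for Wdr36. In large subunit genes they were -1.44 for Mrto4, -1.41 for Nop16, -1.10 for Ebna1bp2, -1.04 for Wdr12, -0.99 for Nip7, -0.94 for Rrs1, -0.92 for Nop2 and -0.59 for Pes1. With only 2 pairs on day 2, 1 per arm, the spread of that day rests on few values, and 11 members passed without the Dppa2/4 day 2 pair. Thy1 mRNA, at 230 FPKM in the Dppa2/4 day 2 Thy1-SSEA1- library against 195 in its Thy1+SSEA1- partner, goes against the label of that gate.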

How the results depend on the processing

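Of the alternatives tried for counts of members called, 367 kept the count within 1.5 times and 27 moved it. Counts of higher and of lower members were scored apart, and a count of 0 that stayed at 0 was scored as kept. The 367 therefore say little on the counts above 0, whose moves are given next. Members lower with Dppa2/4 (21) numbered 0 without the stratum block, 6 without the Dppa2/4 libraries of day 11, 12 with the rtTA-MEF pair added, and 13 to 22 with 1 stratum left out (13 without day 11 Thy1-SSEA1-). Members higher in Thy1-SSEA1+ than in Thy1-SSEA1- cells (17) numbered 10 without the filter on low values, 0 without the block and 0 to 18 with 1 pair left out. Against Thy1+SSEA1- cells (22) they numbered 0 without the filter, 0 without the block and 0 to 0 with 1 pair left out. Members higher in GFP+ than in Thy1-SSEA1+ cells (24) numbered 7 without the block, 8 without the Dppa2/4 libraries of day 11 and 6 to 28 with 1 pair left out. Members falling over days in Thy1+SSEA1- cells (0) numbered 14 with mean FPKM of at least 5 and 25 without the library labelled Dppa2/4 day 4, so 0 to 25 with 1 library left out. The terms for a different Dppa2/4 effect passed for 0 to 2 members (late days, 2 without day 8 Thy1-SSEA1+) and 0 to 1 (gates, 1 without day 11 Thy1-SSEA1-) with 1 stratum left out. The day 2 difference of the Thy1-SSEA1- effect (27 lower) passed for 5 without the block and 11 to 28 with 1 pair left out. The cause of these moves was not tested, except that a fit with fewer pairs has fewer degrees of freedom. Apart from those given above, the shares of all genes called in these fits are not given here. A move of the members' count thus cannot be told from a general one. The GC correction, the fits without the Dppa2/4 day 11 libraries, the fit without the day 2 pairs and the day 2 test were chosen after seeing the data. No paired analysis was possible because the labels number no replicates, where this means pairing by replicate number: the tests of the text pair libraries by day and gate or by arm and day. Each combination is 1 library, the true depth is not given in the sources used here, and FPKM is relative to its library, so a change in total RNA per cell is not detectable.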
